A study of Saccharomyces cerevisiae with 593 samples.

Results

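The 3 genes described here, NAM7, NMD2 and UPF3, encode the core factors of nonsense-mediated decay in the yeast Saccharomyces cerevisiae. They were selected by gene symbol from the probe annotation of a 2-colour array built for the study of splicing. NAM7 (locus tag YMR080C) and UPF3 (YGR072W) have 1 oligo each and NMD2 (YHR077C) has 4, so 6 of 1457 named oligos and 3 of 982 genes are covered. Each oligo is spotted in 6 copies, which gives 36 of the 9216 spots of an array. The 4 NMD2 oligos are numbered by their position on the array and are kept apart. The annotation does not say which of them reads an exon, the intron or a junction.

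Nonsense-mediated decay removes mRNAs on which translation stops too early, among them pre-mRNAs that leave the nucleus unspliced. NAM7, also called UPF1, is an RNA helicase that acts at the terminating ribosome, NMD2 (UPF2) bridges the complex, and UPF3 binds NMD2. NMD2 itself carries an intron near its 5' end, so its pre-mRNA and its mature mRNA can in principle change separately on an array of this kind.

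The series holds 593 arrays of 311 array identifiers, grouped here by strain, treatment, time and control. Wild-type cells were exposed to salt (KCl at 1 M, LiCl at 300 mM or NaCl at 0.5 M), to sorbitol at 1 M, to heat shock at 42 degrees Celsius, to sulfometuron methyl at 5 ug/mL or to media without amino acids, glucose, nitrogen, inositol or phosphate, with time-matched untreated cells as the control. The histidine synthesis inhibitor 3-aminotriazole (3-AT, 50 mM), rapamycin (200 ng/mL, an inhibitor of the TOR kinase), dithiothreitol (1 or 10 mM), wortmannin (1 mg/mL) and the casein kinase inhibitor TBB (20 uM) were compared with cells taken before treatment. KCl with TBB and KCl with 3-AT had time-matched untreated controls. The array titles name such time-matched controls mock treated, and they are called untreated here. Deletions of hog1 (the osmotic stress kinase), rrp6 (a nuclear exosome nuclease), edc2 and both ckb genes in KCl were set over untreated cells of the same strain, and other arrays set the rrp6 or ckb deletion directly over wild-type RNA. The strain without both ckb genes also received 3-AT or rapamycin, the single ckb1 and ckb2 deletions 3-AT or sulfometuron methyl, and the cka1 and cka2 deletions sulfometuron methyl. Further wild-type arrays combined 3-AT with rapamycin or with nitrogen depletion, or compared TBB with 3-AT, rapamycin or KCl against either agent alone. Strains with HIS3 deleted or repaired were deprived of histidine. Times were mostly 5, 10, 20 and 40 min. Whether the replicates come from separate cultures is not given in the labels, so the p-values measure only the spread between these samples.

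All values are log ratios of treated over control RNA, taken as base 2 because the base is not stated, and are given as means over replicate values with their SD. A ratio is relative to the rest of the RNA on the array, so a rise of 1 RNA and a fall of the others cannot be told apart. A mean was called when its adjusted p from limma was under 0.05, tested in the 79 groups with 2 or more replicates; 116 groups have 1 replicate and no test. The median SD of the 6 copies on an array was 0.0741 for NAM7, 0.0944 for NMD2 oligo 3, 0.115 for NMD2 oligo 2, 0.150 for NMD2 oligo 1, 0.182 for UPF3 and 0.186 for NMD2 oligo 4, against 0.139 over all oligos. UPF3 lacked 12.2% of its spots and had no value on 10 arrays.

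Limits shared by several results come first. Batch B, of 28 arrays, was run with the treated RNA in Cy5 only, and it supplies 1 of the 2 replicates in amino acid depletion, glucose depletion, heat shock and 3-AT with KCl. On arrays with both orientations the dye effect was taken as the Cy5 value minus the Cy3 value, divided by 2. It was −0.18 ± 0.14 (SD, n = 282) for NMD2 oligo 4, −0.17 ± 0.12 for NAM7 and −0.13 ± 0.21 for NMD2 oligo 3. For NMD2 oligo 2 it was 0.14 ± 0.14, for NMD2 oligo 1 0.13 ± 0.15 and for UPF3 −0.03 ± 0.20. The full difference between the orientations is 2 times these values. In batch C, 7 identifiers whose treated RNA is labelled as channel 2 correlated with their own replicates at between −0.91 and −0.10 over all oligos. They belong to rapamycin at all 4 times, nitrogen depletion at 20 and 40 min and wortmannin at 5 min. Their direction is not settled, and they are used as labelled. Where a call is said to be lost without a replicate, all replicates of that number were left out of every group. The fit was then repeated, so such a loss also reflects fewer values in the whole fit.

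Across all groups, 1 oligo of NMD2 covered a far wider range than the rest of the decay factors. NMD2 oligo 3 ranged from −1.46 in KCl with TBB at 5 min to 1.73 in heat shock at 40 min. NAM7 and NMD2 oligo 4 stayed within 0.5 of 0 in every group, NMD2 oligos 1 and 2 in all but 2 each and UPF3 in all but 10. Over all named oligos, 89.4% of the group means lay within 0.5 of 0, against 70.8% for NMD2 oligo 3. These values include KCl and heat shock, for which NMD2 oligo 3 was singled out. In the 157 other groups NMD2 oligo 3 ranged from −0.69 to 1.41 and NMD2 oligo 4 from −0.41 to 0.36. These 157 include groups with KCl in both the treated and the control RNA.

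The number of comparisons called tells the members apart less sharply. Over the 79 comparisons 11.4% of all oligo means were called, 5.63% higher and 5.74% lower. NAM7 was called in 1 (lower), NMD2 oligo 1 in 5 (all higher), NMD2 oligo 2 in 2 (both higher), NMD2 oligo 4 in 9 (3 higher and 6 lower) and UPF3 in 7 (5 higher and 2 lower). NMD2 oligo 3 was singled out beforehand for KCl and heat shock, so the 20 comparisons with either, in any strain or combination, carry no test for it. In the other 59, where 8.24% of all means were called (4.29% higher and 3.95% lower), it was called in 5, all higher. That count uses the batch C identifiers of unsettled direction as labelled. With them turned or left out its count was higher, as given in the closing section. The share of all oligos called in those settings is not given here.

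**Figure D1:**
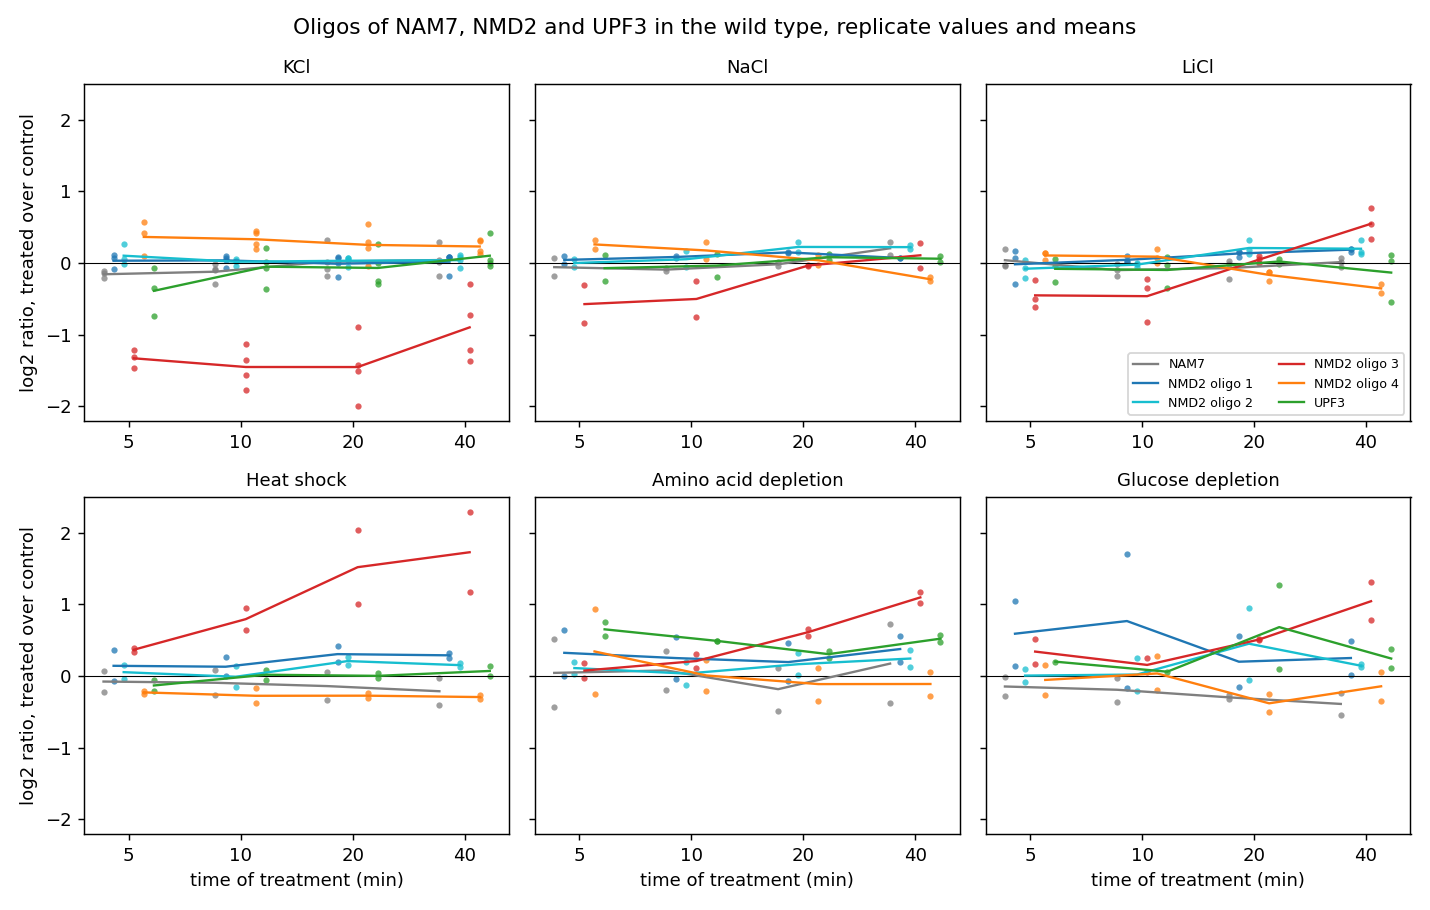
Log2 ratio of treated over untreated wild-type RNA against time in minutes for the 6 oligos of NAM7, NMD2 and UPF3, in KCl, NaCl, LiCl, heat shock, amino acid depletion and glucose depletion. Points are replicate values and lines join the means. NMD2 oligo 3 lies between −2.00 and −0.29 in KCl and rises to a mean of 1.73 at 40 min of heat shock, while the other oligos stay nearer 0.

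NAM7, the helicase, was the flattest of the 6. Its means ran from −0.39 to 0.24, and in KCl they lay between −0.16 and 0.04 at the 4 times. Its only call was at 40 min without glucose, where the replicates were −0.55 in batch B and −0.24 in batch F (mean −0.39 ± 0.22, n = 2, limma adjusted p = 0.036), and 31.8% of all oligos were called in that comparison. The call did not hold without batch B (−0.24, adjusted p = 0.36). Without amino acids the replicates went opposite ways. NAM7 read 0.52, 0.35, 0.12 and 0.72 in batch A and −0.44, −0.20, −0.49 and −0.38 in batch B, at 5, 10, 20 and 40 min. NAM7 was called in 0 of 24 differences between treatments or strains by limma, and in 0 at an unadjusted p under 0.05; 7.98% of all oligos were called in these, 3.95% higher and 4.04% lower.

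In wild-type cells in KCl, NMD2 oligo 3 was low in every replicate. At 5 min it read −1.21, −1.32 and −1.46. At 10 min the 4 replicates read −1.13, −1.78, −1.56 and −1.35, and at 20 min −0.90, −2.00, −1.50 and −1.42. At 40 min they spread most, with −0.29, −1.37, −0.73 and −1.21. The means were −1.33 ± 0.13 (n = 3), −1.45 ± 0.28, −1.45 ± 0.45 and −0.90 ± 0.49 (n = 4 each), and 1 replicate at 60 min gave −0.69. Of 1457 oligos, 5, 3, 1 and 12 had a lower mean at 5, 10, 20 and 40 min. The oligo was singled out for KCl and heat shock, so its ranks in either are descriptions. The replicate of batch A was the highest at all 4 times. Both dye orientations of every replicate at these times were below 0.

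The other NMD2 oligos did not follow it down. In KCl the means of NMD2 oligo 1 lay between −0.01 and 0.04 and those of NMD2 oligo 2 between 0.02 and 0.10, with no call. Set against the mean of the other 3 oligos, NMD2 oligo 3 stood at −1.50, −1.58, −1.54 and −0.99 at 5, 10, 20 and 40 min. Of the 702 oligos compared in this way within their genes, 1, 1, 0 and 5 had a lower difference at these times.

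In heat shock the same oligo was high. NMD2 oligo 3 read 0.34 in batch A and 0.39 in batch B at 5 min, 0.95 and 0.64 at 10 min, 2.04 and 1.00 at 20 min, and 2.29 and 1.17 at 40 min. Batch A was the higher from 10 min on. A separate course, set over untreated cells of time 0 with 1 replicate a time, gave 0.40, 0.79, 1.01 and 1.46. Its difference from the other NMD2 oligos was 0.38, 0.85, 1.44 and 1.68 at 5, 10, 20 and 40 min, with 108, 11, 2 and 1 larger among 702 oligos. The means of NMD2 oligo 1 lay between 0.13 and 0.30 and those of NMD2 oligo 2 between −0.01 and 0.21, with no call.

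Other strains and combinations with KCl also gave low values, which are descriptions because the oligo was chosen for KCl. In the hog1 deletion NMD2 oligo 3 read −1.09 and −1.36 at 5 min, −1.02 and −1.61 at 10 min, −1.10 and −1.46 at 20 min, and −1.03 and −1.42 at 40 min. The means lay between −1.31 and −1.22 (n = 2 each), and the replicates overlapped those of the wild type in KCl at every time.

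With the kinase inhibitor TBB added to KCl the oligo was low as well. NMD2 oligo 3 read −1.31 and −1.62 at 5 min, −1.26 and −1.49 at 10 min, −1.36 and −1.52 at 20 min, and −1.05 and −1.50 at 40 min. The means were −1.46, −1.37, −1.44 and −1.28 (n = 2 each). TBB alone left NMD2 oligo 3 between −0.18 and 0.04, with 1 replicate a time.

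The remaining deletion strains in KCl have 1 replicate a time and no test. NMD2 oligo 3 stood at −1.38, −1.36, −1.33 and −1.03 in the rrp6 deletion, at −1.19, −1.14, −1.16 and −0.93 in the edc2 deletion, and at −1.32, −1.18, −1.27 and −0.46 in the deletion of both ckb genes, at 5, 10, 20 and 40 min. With hog1, all 16 group means of deletion strains in KCl over their own untreated cells were below 0.

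**Figure D2:**
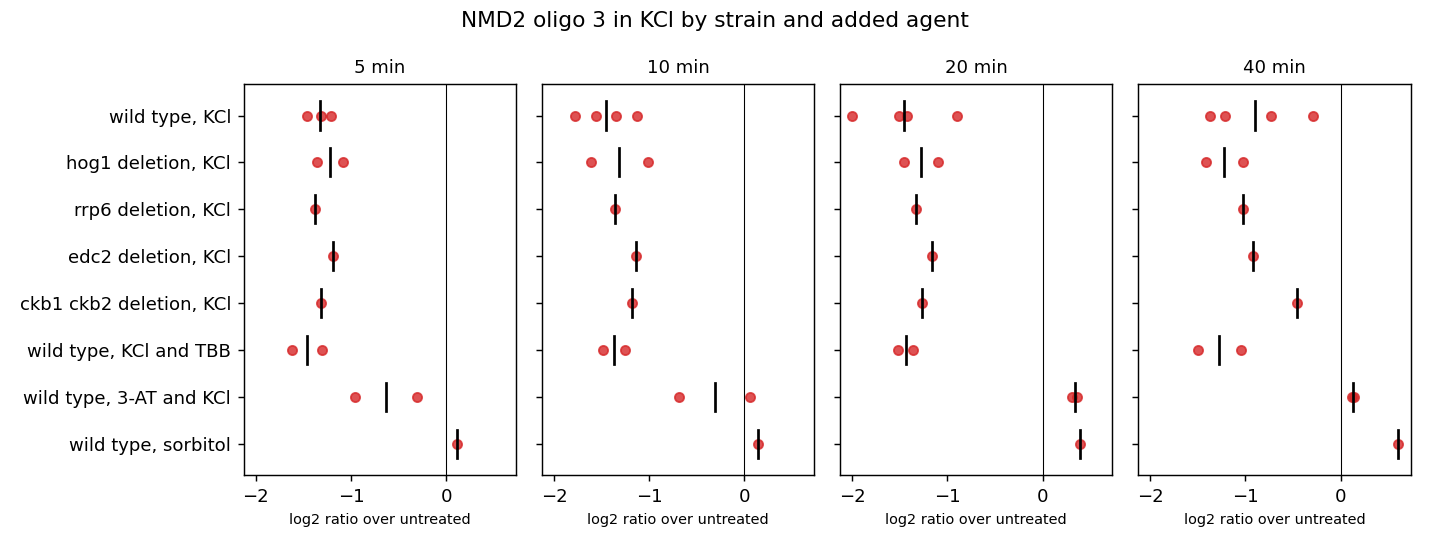
Log2 ratio of NMD2 oligo 3 at 5, 10, 20 and 40 min. Rows are strains in KCl and the wild type in KCl with TBB, KCl with 3-AT, and sorbitol. Dots are replicate values and bars their means. Replicates in KCl without 3-AT lie at or below −0.29, and sorbitol lies above the wild type in KCl at each time.

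Salts other than KCl gave another course for NMD2 oligo 3. In LiCl it read −0.24, −0.62 and −0.50 at 5 min, −0.23, −0.34 and −0.82 at 10 min, 0.09, 0.05 and −0.01 at 20 min, and 0.34, 0.54 and 0.76 at 40 min. The mean at 40 min was called (0.55 ± 0.21, n = 3, limma adjusted p = 0.048), in a comparison that called 33% of all oligos. That call was lost in limma fits without the replicates numbered 2 (0.55, adjusted p = 0.29) or 3 (0.44, 0.20) of all groups. In NaCl it read −0.84 and −0.31, −0.26 and −0.75, −0.05 and −0.02, and −0.07 and 0.28 at the 4 times, with no call. LiCl and NaCl replicates did not overlap those of KCl at any time. The share of all oligos without overlap is not given here. NMD2 oligo 2 did not overlap either at 20 and 40 min in both salts, with no difference called. Within batch H, which holds all 3 salts, KCl minus LiCl was −1.49 at 20 min and −1.65 at 40 min, and KCl minus NaCl was −1.40 and −1.49. Within batch F, at 10 min, KCl minus LiCl was −0.53, against −0.99 over all replicates. These differences use the KCl groups that singled the oligo out and were not tested. The salts were not given at equal concentrations. Sorbitol, with 1 replicate a time, gave 0.12, 0.14, 0.39 and 0.60.

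Adding 3-AT to KCl went with values nearer 0. NMD2 oligo 3 read −0.31 and −0.96 at 5 min, 0.06 and −0.69 at 10 min, 0.31 and 0.37 at 20 min and 0.11 and 0.14 at 40 min, the first of each pair being batch B and the other batch E. No replicate overlapped KCl alone at the same time, and the 2 treatments share no batch, so batch and treatment cannot be told apart. The KCl groups singled NMD2 oligo 3 out, so its differences were not tested. NMD2 oligo 1 did not overlap KCl alone at any time either, with no difference called. Nor did NMD2 oligo 2 at 20 and 40 min, NMD2 oligo 4 at 40 min and UPF3 at 5 min. The share of all oligos without overlap is not given here.

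Outside salt and heat, NMD2 oligo 3 was called higher late in amino acid depletion, glucose depletion and wortmannin. At 40 min without amino acids it read 1.17 in batch A and 1.02 in batch B (mean 1.10 ± 0.10, n = 2, limma adjusted p = 0.0013; 27.7% of all oligos were called). At 40 min without glucose it read 0.78 in batch B and 1.31 in batch F (1.04 ± 0.38, adjusted p = 0.0022; 31.8% called). In wortmannin, an inhibitor of phosphatidylinositol kinases, it read 0.80 and 0.86 at 20 min (0.83 ± 0.04, adjusted p = 0.040; 10.7% called) and 1.84 and 0.97 at 40 min (1.41 ± 0.61, adjusted p = 1.6e-05; 25.3% called). At 5 min in these 3 treatments its means were 0.08, 0.34 and 0.11, not called. With the replicates numbered 2 left out of all groups, 1 replicate was left in each of these. It read 1.17 without amino acids, 0.78 without glucose and 0.80 in wortmannin at 20 min, and these 3 calls were lost. Nitrogen depletion read the other way as labelled, with a mean of −0.44 at 20 min and −0.46 at 40 min (n = 2 each, not called). The replicate of settled direction stood at −0.17 and −0.20, and with the unsettled one turned the means were 0.27 and 0.26.

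Rapamycin depends on the unsettled identifiers. At 40 min the replicate of unsettled direction read −1.37 and the others ran from 0.83 to 2.15, so the mean of NMD2 oligo 3 was 0.54 as labelled, 1.45 with that replicate turned and 1.49 without it. At 20 min the corresponding values were 0.18, 0.74 and 0.61. No rapamycin mean of this oligo was called as labelled.

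In milder conditions the oligo stayed close to 0. NMD2 oligo 3 lay between 0.13 and 0.18 in inositol depletion and between 0.00 and 0.12 in the histidine-deprived HIS3 repaired strain. In the his3 deletion strain it went from −0.03 at 5 min to 0.34 at 40 min (n = 4), with no call and no called difference from the repaired strain. The oligo was called in 0 of the 4 differences open to it, with 0 at an unadjusted p under 0.05. The share of all oligos called in these 4 alone is not given here.

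NMD2 oligo 4 lay on the other side of 0 from NMD2 oligo 3 in KCl and heat shock, by smaller amounts. In KCl it read 0.41, 0.58 and 0.10 at 5 min, 0.42, 0.44, 0.27 and 0.20 at 10 min, and 0.21, 0.55, 0.30 and −0.05 at 20 min. The means were 0.36 ± 0.24 (n = 3, limma adjusted p = 0.0081), 0.33 ± 0.12 (n = 4, 0.0041) and 0.25 ± 0.25 (n = 4, 0.036), all called higher, where 28.8%, 35.4% and 29.2% of all oligos were called. At 40 min the mean of 0.23 ± 0.10 was not called (adjusted p = 0.062). The 20 min call was lost in the arrays with treated RNA in Cy5 (0.085), and the 5 min call without the replicate numbered 2 (0.26, adjusted p = 0.079). In heat shock its 8 replicates lay between −0.38 and −0.17, all below 0, and no mean was called (−0.29 to −0.23, lowest adjusted p = 0.094); at 20 min 25.2% of all oligos were.

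The calls of NMD2 oligo 4 on the low side came late in other treatments. It read −0.29 and −0.42 in LiCl at 40 min (mean −0.36, n = 2 of 3, limma adjusted p = 0.033), −0.29 and −0.49 in wortmannin at 40 min (−0.39), −0.51 in batch B and −0.26 in batch F without glucose at 20 min (−0.38), and −0.76 in batch B and −0.23 in batch E in 3-AT with KCl at 40 min (−0.49). Without batch B the values for glucose (−0.26) and for 3-AT with KCl (−0.23) were not called. In rapamycin at 20 min it read −1.22, −0.14 and −0.33 beside 0.28 in the replicate of unsettled direction (mean −0.35, adjusted p = 0.022; 2.47% of all oligos called), and without the lowest replicate the mean was −0.06. With the unsettled replicate turned the mean was −0.49, and without it −0.57. It was also lower 5 min into 3-AT with TBB over cells before treatment (−0.39, n = 3; 5.42% called). Without the first of those 3 replicates the mean was −0.25 and was not called.

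Differences between treatments in NMD2 oligo 4 were called in 4 of 24 tests, in which 7.98% of all oligos were called. KCl exceeded LiCl by 0.42 at 20 min (limma adjusted p = 0.021) and by 0.59 at 40 min (0.0034), and NaCl by 0.46 at 40 min (0.049). 3-AT with KCl minus KCl was −0.72 at 40 min (adjusted p = 0.0010). The labels pair no replicates, but some batches hold both groups. With batch as a term the salt differences came from batch H alone and were 0.14 (adjusted p = 0.68), 0.42 (0.38) and 0.38 (0.29), none called. NMD2 oligo 2 was called in 1 difference, higher in 3-AT with KCl than in KCl at 40 min by 0.48 (adjusted p = 0.013). NMD2 oligo 1 was called in 0 of 24, with 3 at an unadjusted p under 0.05.

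Across groups NMD2 oligos 3 and 4 mostly differed in sign. Their signs were opposite in 29 of 30 KCl groups, in 8 of 8 heat shock groups and in 115 of the 157 others. Groups with KCl in both the treated and the control RNA are counted among the others. Pearson's r over the 79 replicated group means was −0.77, and −0.54 over the 59 without KCl and heat shock. The points share controls, batches and arrays, so these values are descriptions. For NMD2 oligos 1 and 2, r was 0.62 over the 79 means.

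**Figure D3:**
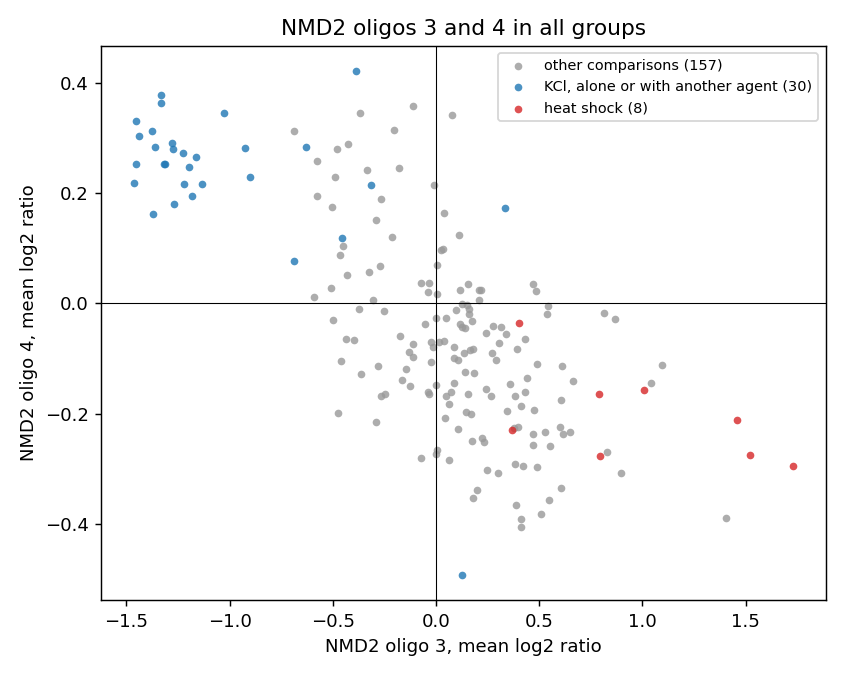
Mean log2 ratio of NMD2 oligo 4 against that of NMD2 oligo 3 in all groups, with KCl, heat shock and other groups marked. Groups with KCl in both the treated and the control RNA are among the others. The signs are opposite in 29 of 30 KCl groups and in all 8 heat shock groups, which lie at the lower right, and the points span −1.46 to 1.73 for oligo 3 and −0.49 to 0.42 for oligo 4.

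Differences within NMD2 were also tested directly, each oligo against the mean of the other 3, in the 59 comparisons without KCl and heat shock. Of all oligos compared this way 6.86% were called, 3.53% higher and 3.33% lower. NMD2 oligo 3 was called in 3, higher at 40 min without amino acids (0.93), without glucose (0.96) and in wortmannin (1.39). Oligo 4 was called in 5, all lower, oligo 1 in 2, both higher, and oligo 2 in 2, in opposite directions. Oligo 3 enters the mean that is subtracted from the others, so a separate fit left it out and could use all 79 comparisons, where 10.1% were called, 5.21% higher and 4.86% lower. Oligo 4 then differed from oligos 1 and 2 in 8 comparisons. It was higher in KCl at 10 min (0.30) and lower in heat shock at 20 and 40 min (−0.53 and −0.51), in LiCl at 20 and 40 min (−0.34 and −0.53), in 3-AT with KCl at 40 min (−1.0), without glucose at 20 min (−0.71) and in wortmannin at 40 min (−0.60). Oligos 1 and 2 were each called in 5.

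Calls of NMD2 oligos 1 and 2 as means rested on batch B. NMD2 oligo 1 read 1.05 in batch B and 0.13 in batch F at 5 min without glucose, and 1.70 and −0.17 at 10 min, where 28.8% and 31.9% of all oligos were called. In 3-AT with KCl it read 0.72 in batch B and 0.19 in batch E at 10 min, 0.74 and 0.18 at 20 min, and 0.66 and 0.33 at 40 min, where 31.6%, 27.2% and 28.4% were called. NMD2 oligo 2 read 0.95 in batch B and −0.05 in batch F at 20 min without glucose (29.1% called), and 0.65 and 0.39 in 3-AT with KCl at 40 min. Without batch B, 1 of these 7 calls held, that of NMD2 oligo 2 in 3-AT with KCl (0.39, limma adjusted p = 0.048).

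UPF3 was higher in cells without amino acids. It read 0.55 in batch A and 0.75 in batch B at 5 min, 0.49 in both at 10 min, 0.26 and 0.35 at 20 min, and 0.47 and 0.57 at 40 min. Every replicate was above 0. The means of 0.65 ± 0.14 at 5 min (limma adjusted p = 0.0073), 0.49 at 10 min (0.041) and 0.52 ± 0.07 at 40 min (0.015) were called, and that of 0.30 at 20 min was not; 11%, 14.3% and 27.7% of all oligos were called at 5, 10 and 40 min. Without batch B the values were 0.55, 0.49 and 0.47 and none was called (adjusted p = 0.24, 0.27 and 0.14).

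Other UPF3 calls differed between replicates. Without glucose at 20 min it read 1.27 in batch B and 0.10 in batch F (mean 0.68, adjusted p = 0.0011 by limma), and in 3-AT with KCl at 40 min 0.98 in batch B and 0.27 in batch E (0.63, 0.0029). Neither held without batch B (0.10 and 0.27). In KCl at 5 min it read −0.07, −0.75 and −0.36 (−0.39 ± 0.34, n = 3, adjusted p = 0.024; 28.8% of all oligos called), and −0.21 without the replicate numbered 2. In 3-AT with TBB over 3-AT at 10 min it read −0.09 and −0.93 (−0.51, adjusted p = 0.041; 8.1% called). UPF3 was called in 0 of 24 differences between groups by limma, with 2 at an unadjusted p under 0.05. Over these 24, 7.98% of all oligos were called.

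In drugs that act on amino acid supply UPF3 means were above 0 without a call. In 3-AT they were 0.38, 0.35, 0.19 and 0.10 at 5, 10, 20 and 40 min (n = 3, 3, 3 and 2), and in sulfometuron methyl 0.16, 0.17, 0.04 and 0.37 (n = 2 each). Without histidine, UPF3 means stayed nearer 0. They were 0.06, 0.02, −0.03 and 0.07 in the his3 deletion (n = 4 each). In the HIS3 repaired strain they were 0.04, −0.04, 0.13 and 0.03 (n = 4 each). In TBB alone UPF3 gave −0.07, −0.40, −0.49 and −0.59, with 1 replicate a time, the last being its lowest value in the series.

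**Figure D4:**
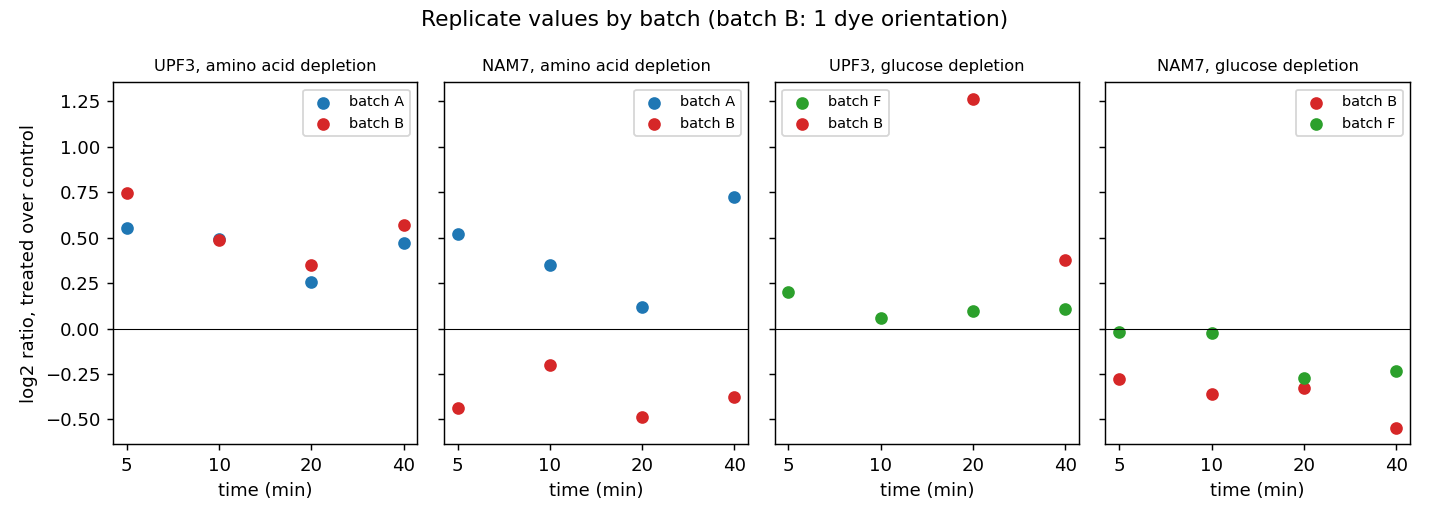
Replicate log2 ratios of UPF3 and NAM7 against time in amino acid depletion and glucose depletion, by batch. UPF3 is above 0 in both batches in amino acid depletion, between 0.26 and 0.75, and NAM7 is above 0 in batch A and below 0 in batch B.

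The rrp6 deletion was set over the wild type in 13 comparisons of 1 replicate each, all of 1 batch, before treatment and in KCl, LiCl and rapamycin. NMD2 oligo 3 was below 0 in all 13, from −0.69 to −0.25 with a median of −0.43, and read −0.51 before treatment. UPF3 was above 0 in 11 (median 0.21), NMD2 oligo 4 in 10 (median 0.07) and NMD2 oligo 1 in 8 (median 0.03). NMD2 oligo 2 was below 0 in 10 (median −0.09) and NAM7 in 9 (median −0.17). RRP6 itself read −3.40 to −0.85 in these arrays. The comparisons share strain, batch and in part their RNA, and none can be tested.

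**Figure D5:**
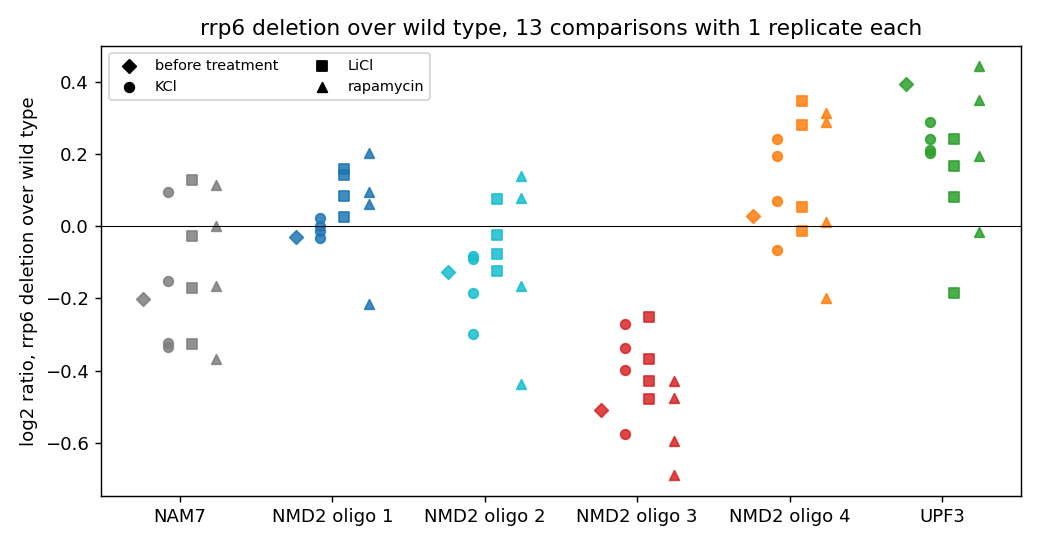
Log2 ratio of the rrp6 deletion over the wild type for the 6 oligos, 1 point for each of 13 comparisons of 1 replicate. All 13 points of NMD2 oligo 3 lie between −0.69 and −0.25, and the other 5 oligos have points on both sides of 0.

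Oligos of other genes with the pattern most like that of each member were found by Pearson's r over the 79 replicated group means. NMD2 oligo 3 was most like the oligos of SME1, an Sm protein of the spliceosome (0.98), SUP61, a serine tRNA gene (0.97), MSL5, the branch point binding protein (0.96), YSC84 oligo 2 (0.96) and AZF1, a zinc finger transcription factor (0.96). In KCl at 20 min SME1 stood at −0.88 ± 0.22, SUP61 at −1.02 ± 0.27, MSL5 at −1.07 ± 0.36, YSC84 oligo 2 at −0.60 ± 0.22 and AZF1 at −1.33 ± 0.38 (n = 4 each). In heat shock at 20 min they stood at 1.21, 1.02, 1.19, 1.11 and 0.68 (n = 2 each). The 79 means used to pick them include KCl and heat shock, so these values follow from the choice. Of 1453 oligos of other genes, 23 had r over 0.9 with NMD2 oligo 3, and 5 when KCl and heat shock were left out. No other member had any over 0.9.

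The patterns most like the other members were weaker. NMD2 oligo 4 was most like 5 oligos of ribosomal protein genes, RPL37B oligo 3 (0.84), RPL29 oligo 1 (0.79), RPL22B oligo 2 (0.79), RPS17A oligo 3 (0.79) and RPL42A oligo 3 (0.78), which stood at 0.30 to 0.54 in KCl and at −1.02 to −0.31 in heat shock at 20 min. KCl and heat shock were among the comparisons used to pick them. NMD2 oligo 1 was most like PER1 (0.80) and NMD2 oligo 2 like ISY1 (0.64). NAM7 was most like PRP8 (0.58), a core splicing factor, followed by SUP45 (0.55), the release factor that NAM7 is known to bind. UPF3 was most like CAF130 (0.59). Libraries, controls and batches are shared by all these points.

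The wider decay machinery on the array was described by lists. NMD4, a small protein that binds NAM7, was called in 19 of 79 comparisons, 18 of them higher, which is 24.1% against 11.4% for all oligos. It stood at 0.56 ± 0.38 (n = 2, limma adjusted p = 0.00058) at 40 min without amino acids. SUP45 was called in 15, all lower, and stood at −0.33 ± 0.30 in heat shock at 20 min (adjusted p = 0.031).

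Decapping and 5' to 3' decay, the route that follows nonsense-mediated decay in yeast, is covered by 17 oligos of 13 genes. In KCl at 20 min 8 were called higher and 1 lower, with a median of 0.22, where 29.2% of all oligos were called. LSM7 oligo 1 and LSM2 oligo 1, of the Lsm ring, stood at 0.74 ± 0.25 (limma adjusted p = 2.1e-10) and 0.73 ± 0.38 (1.2e-09), and the only one lower was the decapping activator PAT1, at −0.30 ± 0.14 (0.0042). In the same KCl comparison LSM7 oligo 3 (0.35) and LSM2 oligo 3 (0.48) were also called higher. LSM7 oligo 2 (0.06) and LSM2 oligo 2 (0.004) were not called. The 8 thus hold more than 1 oligo of each of these genes, whose oligos differed. Apart from DCP1 (0.52), the 8 were all oligos of LSM2, LSM4, LSM5, LSM6 and LSM7. LSM1 (−0.05), LSM3 (0.20), XRN1 (−0.19), DHH1 (0.03), DCP2 (0.22) and EDC1 (−0.08) were not called. The share of all oligos called higher in KCl at 20 min is not given here. In heat shock at 20 min, where 25.2% of all oligos were called, 1 of the 17 was, the helicase DHH1 (0.95 ± 0.27, n = 2, 0.00021). At 40 min without amino acids, where 27.7% of all oligos were called, 4 of the 17 were, all higher, led by DCP2, the decapping enzyme (0.91 ± 0.45, 1.1e-06), and LSM7 oligo 2 (0.76 ± 1.02, 0.0012). LSM7 oligos 1 and 3 stood at 0.05 and −0.05 at 40 min without amino acids, not called. At 40 min without glucose, where 31.8% of all oligos were called, 2 of the 17 were, DHH1 (0.91 ± 0.46, 0.00053) and the decapping enhancer EDC1 (0.53 ± 0.23, 0.0017). Over all comparisons 12.4% of the list's means were called, with a median of 0.03 against 0.00 for all oligos.

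The other lists were mixed. For the 4 SKI genes of cytoplasmic 3' to 5' decay 9.81% of means were called, and in KCl at 20 min only SKI2 was among them (−0.35 ± 0.10, limma adjusted p = 6.6e-05). Of the RNA binding proteins, PAB1, which coats the poly(A) tail, fell by 1.01 ± 0.14 in KCl at 20 min (adjusted p = 3.6e-11) and was called lower in 23 comparisons. HRP1 stood at −1.58 ± 0.83 at 40 min without glucose and at −0.87 ± 0.14 in heat shock at 20 min. Genes whose RNAs are known targets of the pathway were EST2, PPR1 and RPL28, with 5 oligos and 10.4% of means called. In heat shock at 20 min RPL28 oligo 2 stood at −0.87 ± 0.06 (adjusted p = 0.025) and oligo 1 at −0.36 ± 0.04 (0.040), and in KCl at 20 min oligo 1 stood at 0.38 ± 0.23 (0.0011).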

How the data were processed

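RNA from yeast cultures was compared on 2-colour arrays; per the labels' protocols, acid phenol extracts were copied to aminoallyl cDNA and coupled to Cy3 or Cy5. The deposited values, 1 per spot, were taken as log2 ratios with channel 1 of the labels as numerator. The base, any centring and any normalization are not given in the sources used here. Array medians lay between −0.0391 and 0.0477, and no scaling was applied. Between 0.033% and 64.1% of an array's spots were missing (median 4.64%), and no intensities were used, so signal over background is unknown and the number of arrays limits the precision. In 282 of 282 dye-swapped pairs the dye effect followed the labels. For 11 identifiers labelled with the treated RNA in channel 2, the sign was changed.

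Copies and dye orientations were averaged into 1 replicate value. limma 3.58.1 (R 4.3.3) fitted a mean to each of 79 groups (116 residual degrees of freedom), two-sided, with Benjamini-Hochberg adjustment over 1457 named oligos in each comparison and a threshold of 0.05. Differences within genes covered 702 oligos of 231 genes. Named genes were the members, the 5 oligos most like each, and list members that passed the test in a comparison described, the 2 largest in each direction. Members, lists and comparisons were chosen with earlier results of these data known, and NMD2 oligo 3 was not tested in any comparison with KCl or heat shock, a wider limit than first planned. The fit was tested on simulated data. No genome build is given, so no coordinates are printed. Levels of the deleted HIS3, EDC2, CKB1 and CKB2 are not analysed here. Alternatives covered copies, missing spots, scaling, dye orientation, batch, replicates and the fit; 4 were chosen after seeing the data.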

Additional observations from a re-analysis of the deposited data

Results flagged for a closer look

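In groups of 4 replicates, a replicate is listed here when its gap to the nearest of the others, divided by the range, passed Dixon's 95% limit. That was so for 7 of 72 sets of 4 values, and chance alone lists about 1 in 20. NAM7 stood at −0.43 in replicate 4 of the his3 deletion at 20 min without histidine, against 0.08 to 0.17 in the others, and at −0.15 in replicate 4 of the HIS3 repaired strain at 10 min, against −0.01 to 0.02. In the HIS3 repaired strain at 40 min replicate 1 stood apart for NMD2 oligo 3 (0.34 against −0.16 to −0.08) and for UPF3 (0.37 against −0.10 to −0.05). NMD2 oligo 2 stood at −0.12 in replicate 4 of the same strain at 5 min, against 0.02 to 0.04. In wild-type cells in KCl at 40 min NMD2 oligo 1 stood at −0.18 in replicate 1, of batch A, where the others were at 0.08. UPF3 in rapamycin at 20 min stood at −1.33 in replicate 2, against −0.18 to −0.003 in the others; its orientations read −2.40 with treated RNA in Cy5 and −0.25 in Cy3. All but the KCl value are from batch C. Member differences between the his3 deletion and the HIS3 repaired strain, or between hog1 and the wild type, numbered 48. Of these, 44 were tested by limma and none was called, with 0 at an unadjusted p under 0.05. Pooled over all 24 contrasts, 7.98% of all oligos were called. The share for these strain contrasts alone is not given here, so the count is not read as particular to the members.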

How the results depend on the processing

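With 2 to 4 replicates a group, most calls of the members rest on 1 fit that pools the spread, and depth or signal over background could not be examined. No paired analysis was possible because the replicate numbers were given in accession order and pair no samples. Batch was also used as a term in 15 contrasts whose groups share a batch. There 0 of the 79 member differences were called by limma, with 3 at an unadjusted p under 0.05. The share of all oligos called with batch as a term is not given here, so the count is not read as particular to the members. Besides NMD2 oligo 4 in KCl at 20 min, described below, 33 means and differences between groups were called for the members. All 33 held with the unsettled identifiers of batch C turned or left out, and with a robust prior; 32 held with arrays centred on their median. Quantile normalisation between replicate values kept 4, fitting each comparison alone 10, treated RNA in Cy3 only 7, and leaving out batch B 16, with 2 turned in sign. Leaving out the noisiest oligos kept all 14 values that still had one. The causes were not tested.

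Counts of means called changed as follows. NAM7 went from 1 to 0 without arrays that lacked over 20% of spots, after quantile normalisation, with p adjusted over all comparisons, with the dye correction and in fits alone, to 7 in Cy5 only and to 5 in Cy3 only. NMD2 oligo 1 went from 5 to 0 after quantile normalisation and in fits alone, to 3 with p adjusted over all comparisons and to 2 without batch B. NMD2 oligo 2 went from 2 to 4 with batch C turned, 1 after quantile normalisation, 8 in Cy5, 0 in Cy3 and 0 in fits alone. NMD2 oligo 3 went from 5 to 13 with batch C turned or left out, 1 after quantile normalisation and 13 in fits alone. NMD2 oligo 4 went from 9 to 4 after quantile normalisation and in fits alone. UPF3 went from 7 to 2 after quantile normalisation and in Cy3, 3 without batch B and 0 in fits alone.

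Within NMD2, oligo 1 went from 2 to 1 with the median of copies, 0 without arrays of many missing spots, after quantile normalisation, without batch B and in fits alone, and 6 in Cy5. Oligo 2 went from 2 to 4 with batch C turned or left out, 1 with the median of copies, 4 copies needed or fits alone, 6 in Cy5, and 0 without arrays of many missing spots, after quantile normalisation, with p adjusted over all comparisons and without batch B. Oligo 3 went from 3 to 11 with batch C turned, 9 with it left out, 1 after quantile normalisation, 6 in Cy5 and 10 in fits alone. Oligo 4 went from 5 to 10 with batch C turned, 9 with it left out, 11 in Cy5 and 3 in Cy3. Differences between groups went for oligo 1 from 0 to 1 with batch C turned or the median of copies; for oligo 2 from 1 to 2 with the median of copies and to 0 without arrays of many missing spots, after quantile normalisation, in Cy5, in Cy3, without batch B and in fits alone; and for oligo 4 from 4 to 1 after quantile normalisation and in Cy5 and to 2 in Cy3 and with p adjusted over all comparisons.

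In KCl at 20 min NMD2 oligo 2 was called in Cy5 (0.27), and NMD2 oligo 4 was not called after quantile normalisation (0.21), in Cy5 (0.085), or, at 0.25, with p adjusted over all comparisons, the dye correction or a fit alone. In heat shock at 20 min NMD2 oligo 1 was called without arrays of many missing spots (0.30), in Cy3 (0.66) and without batch B (0.42), and NMD2 oligo 3 read 2.74 in Cy3. Without glucose, NMD2 oligo 1 at 10 min turned to −0.17 without batch B, arrays of many missing spots or replicate 1, and to −0.32 in Cy3; NMD2 oligo 2 at 20 min turned to −0.051 in the first 3 and −0.14 in Cy3; UPF3 at 20 min turned to −0.054 in Cy3.

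Leaving out all replicates of 1 number, in every group at once, gave 0 to 3 means called for NAM7 and 4 to 8 for UPF3. For NMD2 it gave 5 to 11 for oligo 1 and 2 to 9 for oligo 2. For oligos 3 and 4 it gave 1 to 12 and 5 to 8. Within NMD2 it gave 0 to 3 for oligo 1, 1 to 2 for oligo 2, 1 to 9 for oligo 3 and 3 to 5 for oligo 4. Differences between groups ran from 0 to 4 for oligo 1, 0 to 1 for oligo 2, 1 to 3 for oligo 4 and 0 to 1 for UPF3. In KCl at 20 min the mean ran from −1.64 to −1.27 for oligo 3 and from 0.15 to 0.35 for oligo 4, without glucose from −0.17 to 1.70 for oligo 1 at 10 min and from −0.051 to 0.95 for oligo 2 at 20 min, and in heat shock at 20 min from 1.00 to 2.04 for oligo 3 and from 0.19 to 0.42 for oligo 1. Where 1 replicate was left, it was assumed to vary like the other groups.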
